A study of Mus musculus with 4 samples.

Results

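An isoform was taken to retain an intron when it had more than 1 exon and 1 of its exons contained a whole intron of another isoform of the same gene, reaching at least 10 nt past both ends of that intron. In the authors' transcript models of the mouse retina, 669 isoforms met this definition, out of 33517 models with more than 1 exon (2.00%), 36426 models in all and 44325 isoforms in the table of counts. They belonged to 546 genes, 6.67% of the 8181 genes with 2 or more models, and covered 759 different retained introns. Their counts made up 0.773% of the 149645836 counts of the table. Of the 546 genes, 98 had 2 or more retaining isoforms, and the highest number in a gene was 4. Another 2 isoforms reached only 1 to 9 nt past an intron end and were not included, while 8 of the included isoforms reached 10 to 19 nt; the median reach was 104 nt.

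Male mice of the inbred strain C57BL6/J, wild-type in genotype, gave the retinas, which were made into 4 droplet-based single-cell cDNA libraries that were read on a nanopore sequencer, which reads a cDNA from end to end. A pair of libraries had no enrichment (1 from postnatal day 40, the other with no age in the labels), 1 was labelled as CD73 enrichment (postnatal week 8) and 1 as CD90.2 enrichment (postnatal month 4). CD73 is a surface protein of rods and CD90.2 of ganglion cells and other neurons; the protocol describes magnetic depletion of CD73-positive and magnetic selection of CD90.2-positive cells, while sorting by fluorescence is named in the design text. The 6 columns of the authors' table hold whole-number isoform counts. The classes are amacrine, bipolar and cone cells, rods, Müller glia (Müller cells, the supporting glia) and retinal ganglion cells. There is no column per library, so each class is 1 pooled value, no spread between animals can be given and no test between classes was made. The libraries differ in enrichment and in the ages given, and which libraries supplied the cells of a class is not stated. A difference between classes therefore cannot be told apart from a difference between libraries, ages or enrichments.

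Introns are normally removed from a transcript in the nucleus. A transcript that keeps one can be held in the nucleus as a detained intron, can be exported and destroyed by nonsense-mediated decay when the intron brings a premature stop codon, or can be translated when the intron lies in an untranslated region (UTR) or keeps the reading frame open. Genes for SR proteins and for the CLK kinases that phosphorylate them, both regulators of splicing, are known for detained introns, and mutations in general splicing factors are known causes of photoreceptor degeneration in people.

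The sequences below show the ends of introns on which the results turn: a pair of known detained introns (Rsrp1, Mat2a), and a pair whose ends, as the models place them, are not GT and AG (Rxrg, Xbp1). Each run is the last 3 exon bases and the first 12 intron bases, or the last 20 intron bases and the first 3 exon bases, 5′ to 3′ on the strand of the gene, with the intron's terminal 2 bases in capitals. They were read from GENCODE M21 transcripts (build GRCm38) whose exon covers the intron.
Rsrp1 5′ end, chr4:134925433-134926734, plus strand: gagGTaagtgccttc
Rsrp1 3′ end: aaaattctcttcctctttAGcat
Mat2a 5′ end, chr6:72434396-72434980, minus strand: cagGTaaagatggta
Mat2a 3′ end: tatggacttgtatattccAGgga
Rxrg 5′ end, chr1:167598653-167598694, plus strand: ggaGCcgagagagag
Rxrg 3′ end: agagagagagagagagagAGaga
Xbp1 5′ end, chr11:5524270-5524295, plus strand: ctgCTgagtccgcag
Xbp1 3′ end: ccgcagcactcagactatGTgca

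Whole introns are given for 3 members that differ in what the retained bases do to the reading frame, with 10 exon bases on either side of the first 2 and 3 of the last. The Mrps26 intron (80 nt) holds no stop codon in the upstream frame but is not a multiple of 3 nt long. Read on in that frame, the exon bases printed after it hold a stop codon, TAG. In Gabarap the intron (138 nt) is a multiple of 3 nt and holds no stop codon in frame. For Zfp383 (294 nt) the first stop codon in frame, TGA, lies at base 231 of the intron and is in capitals.
Mrps26, chr2:130564218-130564317, plus strand: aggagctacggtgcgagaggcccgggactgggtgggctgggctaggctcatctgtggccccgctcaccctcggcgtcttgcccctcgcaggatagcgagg
Gabarap, chr11:69992434-69992591, plus strand: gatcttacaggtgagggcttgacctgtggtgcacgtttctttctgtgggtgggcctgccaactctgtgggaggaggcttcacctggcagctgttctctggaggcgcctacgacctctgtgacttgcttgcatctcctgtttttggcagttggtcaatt
Zfp383, chr7:29912293-29912592, plus strand: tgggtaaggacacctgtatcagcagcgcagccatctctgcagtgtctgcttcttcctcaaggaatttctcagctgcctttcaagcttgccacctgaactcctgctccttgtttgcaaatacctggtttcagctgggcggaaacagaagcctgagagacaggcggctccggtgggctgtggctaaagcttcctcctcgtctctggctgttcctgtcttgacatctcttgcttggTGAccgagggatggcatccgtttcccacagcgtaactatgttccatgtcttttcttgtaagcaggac

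Retained introns were short. Their median length was 228 nt (quartiles 110.5 and 518.5 nt, range 26 to 2501 nt), against 863 nt (quartiles 233 and 2542 nt) for the 6247 other introns of the same genes. Introns over 1000 nt made up 8.83% of the retained and 47.0% of the other introns, and introns under 100 nt made up 20.3% and 10.7%. The definition itself bears on this difference, since a retaining exon must be read through in a single cDNA.

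**Figure D1:**
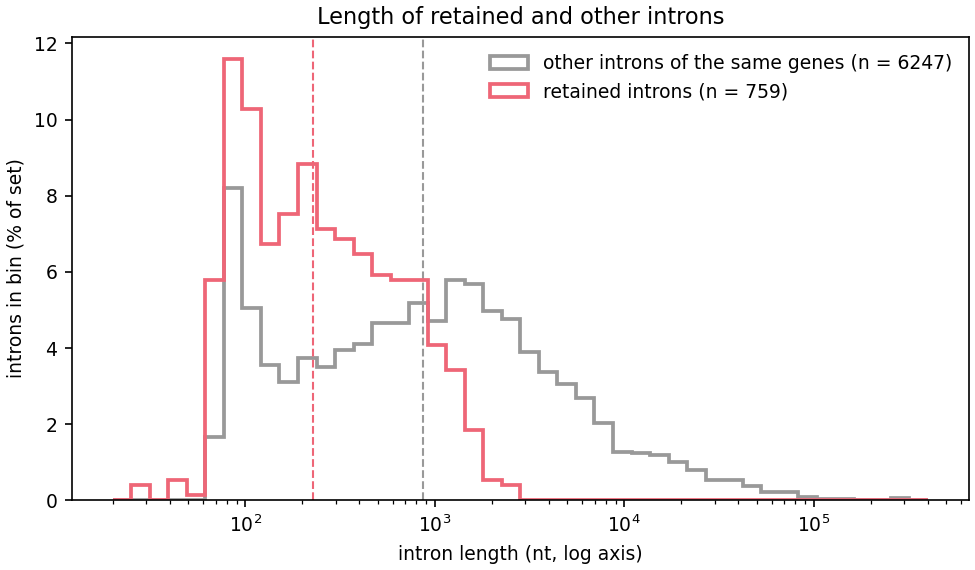
Length of the 759 retained introns (red) and of the 6247 other introns of the same genes (grey), as percent of each set per bin on a log axis of nt; dashed lines are the medians. The retained introns centre on 228 nt and end at 2501 nt, and the other introns centre on 863 nt with a long tail to the right.

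The longest retained introns of isoforms with at least 100 counts lay in Ccdc59 (2501 nt), Vamp1 (1940 nt) and the gene model Gm49320 (1831 nt). Most retaining isoforms kept a single intron (581 isoforms, 86.8%), 74 kept 2 and 14 kept 3 that do not overlap. With overlapping introns counted too, the isoforms with the most introns were those of Mrps17, Gtpbp3 and Mettl17, 3 genes of mitochondrial translation or tRNA modification. The Mrps17 isoform contained 6 overlapping introns of the 5′ UTR that share a 3′ end.

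Sequence could be read for 665 of the 759 introns (87.6%). Of these, 638 (95.9%) began with GT and ended with AG, the usual ends of an intron. GC-AG introns, a minor class with a weaker donor site, numbered 23 (3.46%, exact 95% interval 2.20 to 5.14%). They share donor sites, and the 23 have 18 distinct ones. Among 9724 introns that M21 lists as retained in genes with a model here, but that no model retains, the share of GC-AG was 1.94% (1.68 to 2.24%). Introns with the donor motif of the minor (U12) spliceosome, searched as GTATCCTT or ATATCCTT on the gene's strand at the first intron base, numbered 4 (0.602%, against 0.401% of the 9724). Median GC content was 53.6%, against 51.3% for the 9724 introns, and median length in this comparison was 214 against 275 nt.

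Annotation already held most of these events. Among the 669 retaining isoforms, 526 (78.6%) carried the identifier of an Ensembl transcript, against 38.1% of the 1699 other multi-exon isoforms of the same genes. Retention was present in M21 for 660 of the 759 introns, counting any M21 exon of the gene that covers the intron, and splicing for 729. Conversely, M21 lists 10361 retained introns in genes with a model here, of which 637 were found (6.15% of the M21 list and 83.9% of the introns found here). M21 classed 240 of the 526 isoforms as retained_intron, a class with no assigned protein, 216 as protein_coding and 37 as nonsense_mediated_decay.

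These classes differed in abundance. The retained_intron isoforms held a median of 9.14% of their gene's counts (quartiles 4.30% and 19.9%) and the nonsense_mediated_decay isoforms 9.30%. By contrast, the protein_coding isoforms held a median of 48.4% (quartiles 19.4% and 74.6%). Unannotated members held a median of 10.4%. Of the 669 isoforms, 180 (26.9%) were the most abundant isoform of their gene. Compared with the 1699 other isoforms of the same genes, retaining isoforms had fewer exons (median 7 against 9), more bases (2178 against 1754 nt) and a higher median count (145 against 78).

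How often an intron was retained followed its place in the transcript. For each intron, the retained percent is the counts of isoforms that retain it over the counts of isoforms that retain or splice it. The 502 introns between coding exons (66.1% of 759) had a median of 16.4% (quartiles 5.68% and 40.7%). The 97 introns of 5′ UTRs had a median of 85.2% (quartiles 60.5% and 93.0%) and the 62 of 3′ UTRs 78.3% (quartiles 28.5% and 89.4%). For 68 introns of noncoding transcripts the median was 72.1%. Over all locations, 295 introns were retained in over 50% of counts and 197 in under 10%. The lowest value was 2.05%; how the authors filtered rare isoforms is not given in the sources used here, and this lower edge may not be the tissue's.

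Among the 446 coding introns with a sequence, 379 (85.0%) held a stop codon in the upstream frame. The length was a multiple of 3 for 171 of the 502 coding introns (34.1%). Both conditions for an open frame, no stop and a multiple of 3, held for 37 of 446 (8.30%). These 37 were short, with a median of 108 nt against 239 nt for those with a stop. Their median retained percent was 41.7% (quartiles 21.4% and 67.9%), against 15.3% (quartiles 5.31% and 35.0%) for the other 409. The open-frame intron with the most retaining counts was in Spr, the gene of sepiapterin reductase, which makes the cofactor tetrahydrobiopterin (chr6:85136932-85137060, minus strand, 129 nt). It was retained in 99.1% of amacrine, 97.1% of bipolar, 97.6% of cone, 97.0% of Müller cells, 96.9% of rod and 94.1% of ganglion cell counts.

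Across the 6 classes the share of the retaining isoforms was taken for genes with at least 50 counts in the column: 616 of the 669 isoforms met this in some class, 174 in all 6 and 53 in none. The number of genes was 453 in rods, 417 in amacrine, 376 in bipolar and 232 in cone cells, 225 in Müller cells and 172 in ganglion cells, following column totals that ran from 3509890 counts (ganglion cells) to 55437340 (rods). The median summed share per gene was 19.5% in rods, 17.6% in cone cells, 16.5% in amacrine cells, 16.1% in bipolar cells, 9.88% in ganglion cells and 8.08% in Müller cells. Over the 146 genes that met the threshold in all 6 classes, the medians were 18.5% in rods, 14.6% in both cones and amacrine cells, 11.6% in bipolar cells, 9.46% in ganglion cells and 8.15% in Müller cells. Rods were highest and Müller cells lowest on the shared genes too. The medians over each class's own genes moved with how members were taken: with introns taken only from models at 10% or more of gene counts they ran from 5.33% (Müller cells) to 13.8% (rods), and over retaining isoforms with 100 or more counts the median was 35.8% in rods and 29.0% in amacrine cells.

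Pooled over counts, where genes with many counts weigh most, the order was different. The pooled share was 29.6% in amacrine cells, 26.1% in Müller cells, 25.5% in ganglion cells, 25.1% in bipolar cells, 23.1% in cone cells and 21.7% in rods. Genes just inside the threshold, with 50 to 59 counts in the column, numbered 9 to 20 a class with medians between 3.92% (ganglion cells) and 28.1% (cones). Those just outside, with 40 to 49 counts, numbered 11 to 19 with medians between 0% (ganglion cells) and 27.1% (bipolar cells).

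A limit of the models enters every comparison with rods. The models cover exactly the isoforms with at least 1 rod count, and the 7899 isoforms without one have no model, so every retaining isoform was seen in rods by construction and none could be found that rods lack. For this reason the counts of isoforms by direction are set beside those of all multi-exon isoforms, which carry the same condition. The medians by class, over genes or over introns, carry it too and have no such background beside them.

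Retaining isoforms held a higher share in rods than in Müller cells for 195 of 268 members tested (72.8%), where 55.9% of all multi-exon isoforms did. Against ganglion cells the number was 132 of 202 (65.3%; all isoforms 57.5%), against cones 183 of 284 (64.4%; 54.5%), against bipolar cells 269 of 428 (62.9%; 54.1%) and against amacrine cells 291 of 466 (62.4%; 56.3%). All 5 shares were above their background, and over these isoforms the margin was widest for Müller cells.

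The margin was wider where the retained intron lay between coding exons. Of those isoforms, 123 of 151 (81.5%) were higher in rods than in Müller cells, with median shares of 8.66% and 3.27%. Against ganglion cells the number was 92 of 113 (81.4%), with medians of 9.21% and 2.13%. It was 68.8% against bipolar cells, 67.8% against amacrine cells and 67.5% against cones. When only isoforms with at least 100 counts that were not the most abundant of their gene were taken, 134 of 167 members (80.2%) were higher in rods than in Müller cells, against a background of 61.5%, and 106 of 138 (76.8%) were higher in rods than in ganglion cells, against 60.7%. Of these members, those with the intron between coding exons were higher in rods than in Müller cells for 98 of 116 (84.5%). Against ganglion cells the number was 79 of 96 (82.3%). The gap between coding and all members was thus narrower on this footing. On the same footing the share was also higher than in Müller cells for 120 of 160 members in cone cells (75%, against a background of 54.6%) and for 124 of 167 in bipolar cells (74.3%, against 57.8%). Amacrine cells were above Müller cells for 97 of 167 members (58.1%, against 59.5%). A higher share than in Müller cells was therefore not confined to rods.

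**Figure D2:**
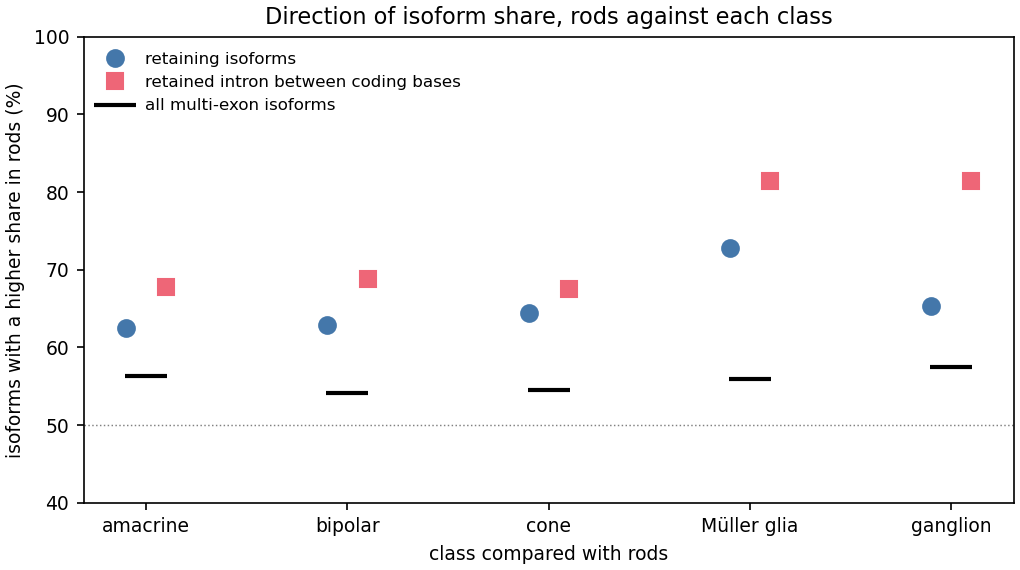
Percent of isoforms with a higher share of gene counts in rods than in the class on the x axis, for all retaining isoforms (blue circles), those with the intron between coding bases (red squares) and all multi-exon isoforms (black lines). Each red square and blue circle lies above its black line, and the red squares reach 81.5% and 81.4% for Müller cells and ganglion cells.

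The same split by location was seen intron by intron. For the 114 coding introns with at least 50 retaining or splicing counts in every class, the median retained percent was 10.1% in rods, 7.13% in cone cells, 4.97% in amacrine cells, 4.34% in bipolar cells, 3.28% in Müller cells and 1.66% in ganglion cells. For 26 introns of 5′ UTRs the 6 medians lay between 86.2% (cones) and 91.7% (amacrine cells). For 11 introns of 3′ UTRs they lay between 86.6% (rods) and 98.0% (ganglion cells). By median, rods were therefore highest for coding introns but not for UTR introns. Coding introns were mostly spliced and UTR introns mostly retained, so location and level of retention cannot be told apart in this split. Of the 114 coding introns, 39 had no retaining count in ganglion cells and 8 had none in Müller cells; these are the 2 columns with the fewest counts, and the part of depth in this was not tested.

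**Figure D3:**
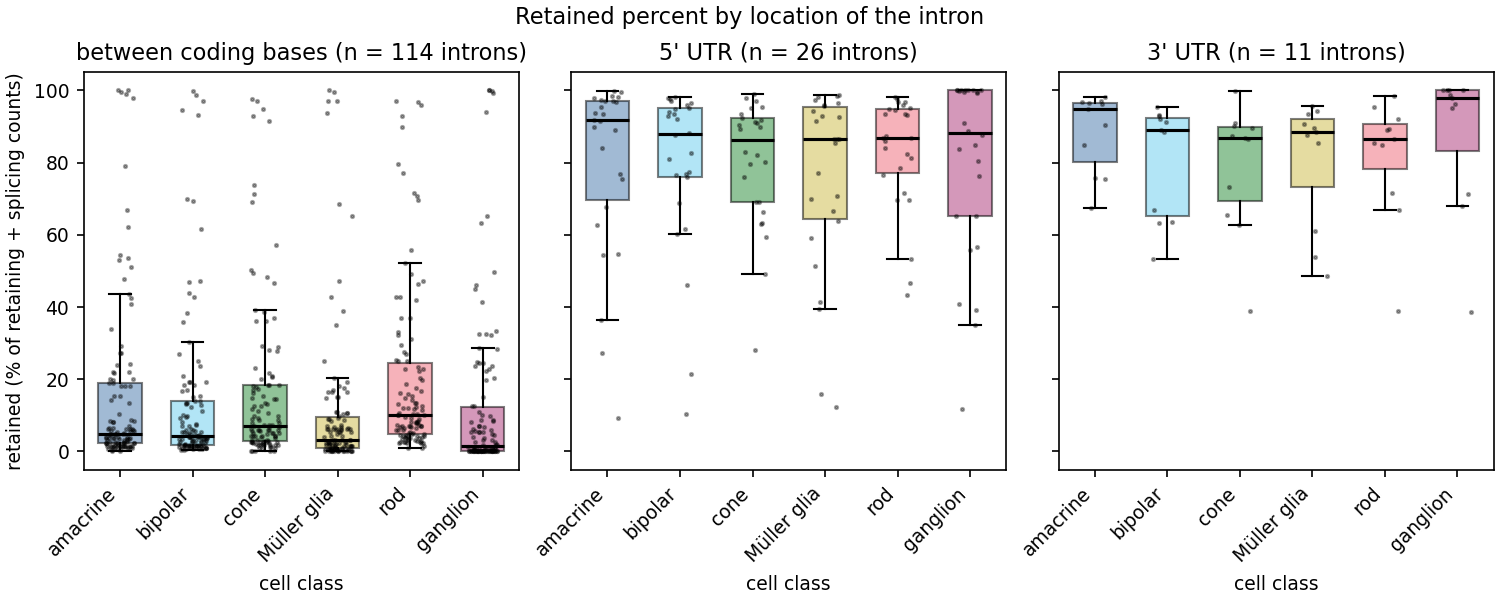
Retained percent per intron (y axis) in the 6 classes, for introns with at least 50 counts in every class, between coding bases (114), in 5′ UTRs (26) and in 3′ UTRs (11); boxes are quartiles with the median, whiskers reach 1.5 times the box, points are introns. Coding introns lie low with the highest median in rods (10.1%), and UTR introns lie high in every class.

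Column identity was checked with 6 marker genes per class: 35 of 36 were highest in their own column. The Müller cells column also held counts of pigment epithelium markers (8878 CPM, counts scaled to a column total of 1000000, summed over 6 genes) and of microglia markers (1623 CPM), against at most 62.4 and 697 CPM in the other columns. Rod markers summed to 21316 CPM in rods, 1270 CPM in Müller cells, 894 CPM in cones, 371 CPM in bipolar cells, 138 CPM in amacrine cells and 0 in ganglion cells. In the amacrine column amacrine markers summed to 428 CPM, Müller markers to 981 CPM and ganglion markers to 697 CPM. The part of these admixed counts in the retained shares was not tested.

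The 10 retaining isoforms with the most counts were those of Pfdn6, Rsrp1, Txn2, Ubxn1, Glo1, Mat2a, Mrps26, Arpc2, Dnal4 and Spop. In 4 the intron lay in the 5′ UTR (Pfdn6, Ubxn1, Arpc2, Spop), in 2 in the 3′ UTR (Txn2, Glo1) and in 4 between coding exons. Pfdn6, a subunit of the prefoldin chaperone, had 83204 counts of the retaining isoform: 99.6% of gene counts in amacrine, 97.8% in bipolar, 98.0% in cone cells, 92.9% in Müller cells, 96.9% in rods and 99.2% in ganglion cells. Spop, an adaptor of a cullin ubiquitin ligase, was at 97.9%, 97.1%, 95.2%, 91.5%, 97.5% and 99.6% in the same order, which is kept in every later list without class names. For both genes the spliced form was rare in every class, and least rare in Müller cells.

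Txn2, the mitochondrial thioredoxin, retained its 3′ UTR intron in 98.3% of amacrine, 93.2% of bipolar, 87.5% of cone, 94.2% of Müller cells, 88.9% of rod and 98.0% of ganglion cell counts. Glo1, which detoxifies methylglyoxal, was at 94.7%, 89.1%, 86.9%, 87.7%, 86.6% and 96.2%. In both, amacrine and ganglion cells were highest and the photoreceptors low. Arpc2, a subunit of the actin-nucleating Arp2/3 complex, was at 76.7%, 76.5%, 69.1%, 51.4%, 71.6% and 56.8%, lowest in Müller cells. Ubxn1, a partner of the p97 ATPase, varied little, from 86.5% in Müller cells to 93.1% in rods, and Dnal4, a dynein light chain, ran from 80.5% in cone cells to 92.5% in amacrine cells.

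Mrps26 encodes a protein of the small subunit of the mitochondrial ribosome, and the 80-nt intron printed above has a GC content of 72.5%. Its retaining isoform held 51.1% of gene counts in amacrine cells (95% exact binomial interval 50.5 to 51.7%, which covers counting error only, as do all intervals here), 43.9% in bipolar cells, 46.7% in cone cells, 42.8% in Müller cells, 52.3% in rods and 46.2% in ganglion cells. Retained and spliced forms were thus about equally frequent, and the 6 classes lay within 10 percentage points.

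Among the gene lists examined, known detained introns and SR protein or CLK genes had the largest shares of genes with a retaining isoform. Of 18 genes with 2 or more models on a list of known detained introns, 8 had a retaining isoform (44.4%): Ccnl1, Clk1, Cpsf6, Mat2a, Ogt, Rsrp1, Srsf5 and U2af1l4. The list was drawn up from prior knowledge of retention, and so its count is not independent of the subject. Of 17 SR protein and CLK genes, 5 had one (29.4%; Clk1, Srsf1, Srsf2, Srsf5, Srsf7), and of 43 hnRNPs and other RNA-binding proteins 6 had one (14.0%; Ddx5, Hnrnpab, Luc7l, Rbm3, Rbm5, Tardbp). The share over all genes with 2 or more models was 6.67%. Phototransduction and outer segment genes gave 4 of 30 (Gnat1, Gnb3, Nr2e3, Unc119), RNA host genes and long noncoding RNAs 2 of 13 (Snhg5, Snhg12), cytosolic ribosomal proteins 2 of 23 (Rpl10, Rps27), synaptic genes 2 of 28 (Cacna1f, Vamp1) and oxidative phosphorylation genes 0 of 25.

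Rsrp1, a small arginine- and serine-rich protein, retained a 1302-nt intron in 69302 counts. The retaining share was 42.6% in amacrine cells (42.1 to 43.2%), 23.7% in bipolar cells (23.0 to 24.3%), 38.7% in cone cells (37.5 to 39.8%), 10.8% in Müller cells (9.78 to 11.9%), 47.3% in rods (47.0 to 47.6%) and 49.7% in ganglion cells (47.1 to 52.4%). Müller cells and bipolar cells were low, and the intervals of rods and ganglion cells overlapped. Mat2a makes S-adenosylmethionine, and its last intron is a textbook case of regulated retention. Here the retaining isoform held 78.9% in amacrine cells, 69.5% in bipolar cells, 71.4% in cone cells, 20.5% in Müller cells (17.4 to 23.9%), 77.0% in rods (76.5 to 77.5%) and 99.3% in ganglion cells (96.1 to 100%, 139 gene counts). Müller cells stood apart as the class in which the spliced form prevailed.

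Clk1, a kinase of SR proteins, had an 11-exon and a 4-exon retaining isoform, both classed by M21 as retained_intron. The 11-exon form (2 introns kept, of 387 and 871 nt) held 14.9% in amacrine cells, 8.93% in bipolar cells, 20.9% in cone cells, 4.42% in Müller cells (2.23 to 7.77%) and 29.7% in rods (28.5 to 30.9%). The 4-exon form (3 introns kept) held 19.6%, 4.14%, 14.6%, 1.61% and 21.7%. Rods were highest and Müller cells lowest for both, though for the 4-exon form the intervals of rods (20.6 to 22.8%) and amacrine cells (17.7 to 21.6%) overlapped; ganglion cells had too few Clk1 counts (28).

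Srsf7, an SR protein whose isoform here keeps both introns around an alternative exon, had shares of 2.09% in amacrine cells, 8.43% in bipolar cells, 14.4% in cone cells, 6.85% in Müller cells, 22.5% in rods (21.5 to 23.5%) and 0 of 308 counts in ganglion cells (exact upper limit 1.19%). Srsf5, of the same family, stayed low everywhere: 0.816%, 1.40%, 3.21%, 1.04%, 3.58% and 1.57%. Rods were highest for both genes, with cones next, and for Srsf5 the intervals of rods (3.33 to 3.85%) and cones (2.37 to 4.25%) overlapped.

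Ddx5, an RNA helicase, retained a 1265-nt intron in an isoform that M21 assigns to nonsense-mediated decay. Its share was 8.10% in amacrine cells, 2.82% in bipolar cells, 4.20% in cone cells, 0.103% in Müller cells (0.0125 to 0.373%), 12.6% in rods (12.3 to 12.9%) and 0 of 128 counts in ganglion cells (exact upper limit 2.84%). Rbm3, a cold-inducible RNA-binding protein, was at 1.17%, 1.30%, 2.45%, 0.305%, 7.38% (6.86 to 7.92%) and 0.529%. In both genes the rod interval lay above those of the other 5 classes. Rbm5, a regulator of alternative splicing, went the other way in isoform share: its unannotated retaining isoform held 19.4%, 21.2%, 25.4%, 40.8% (35.2 to 46.6%), 14.0% (13.2 to 14.9%) and 18.3%, highest in Müller cells and lowest in rods. The retained percent of its measured intron differed less between Müller cells and rods, by 8.21 points against 26.8 points for the isoform share. Tardbp (TDP-43, which binds its own transcript) was retained almost throughout, with 91.9% in amacrine cells, 98.6% in bipolar cells, 100% in cone cells and 97.9% in rods; the retaining isoform is the protein_coding one and the spliced one removes 995 nt.

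Ogt adds O-linked N-acetylglucosamine to proteins, and its known detained intron, between coding exons, responds to that modification. The intron retained here was instead a 107-nt intron of the 5′ UTR (chrX:101640111-101640217, plus strand), kept by a pair of 4-exon isoforms. The isoform ENSMUST00000155792.1 held 61.7% in amacrine cells, 27.9% in bipolar cells, 16.1% in cone cells, 20.2% in Müller cells, 24.5% in rods and 48.5% in ganglion cells. ENSMUST00000150161.7 held 13.7%, 48.1%, 50.2%, 46.3%, 45.2% and 7.30%. The 2 forms thus mirrored each other, with the first prevailing in amacrine and ganglion cells and the second in the other 4 classes. Their sum ran from 55.8% in ganglion cells to 76.0% in bipolar cells. The retained percent of the intron that both keep differed less than these shares. It differed by 9.21 points between amacrine and cone cells and by 10.4 points between cone and ganglion cells.

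**Figure D4:**
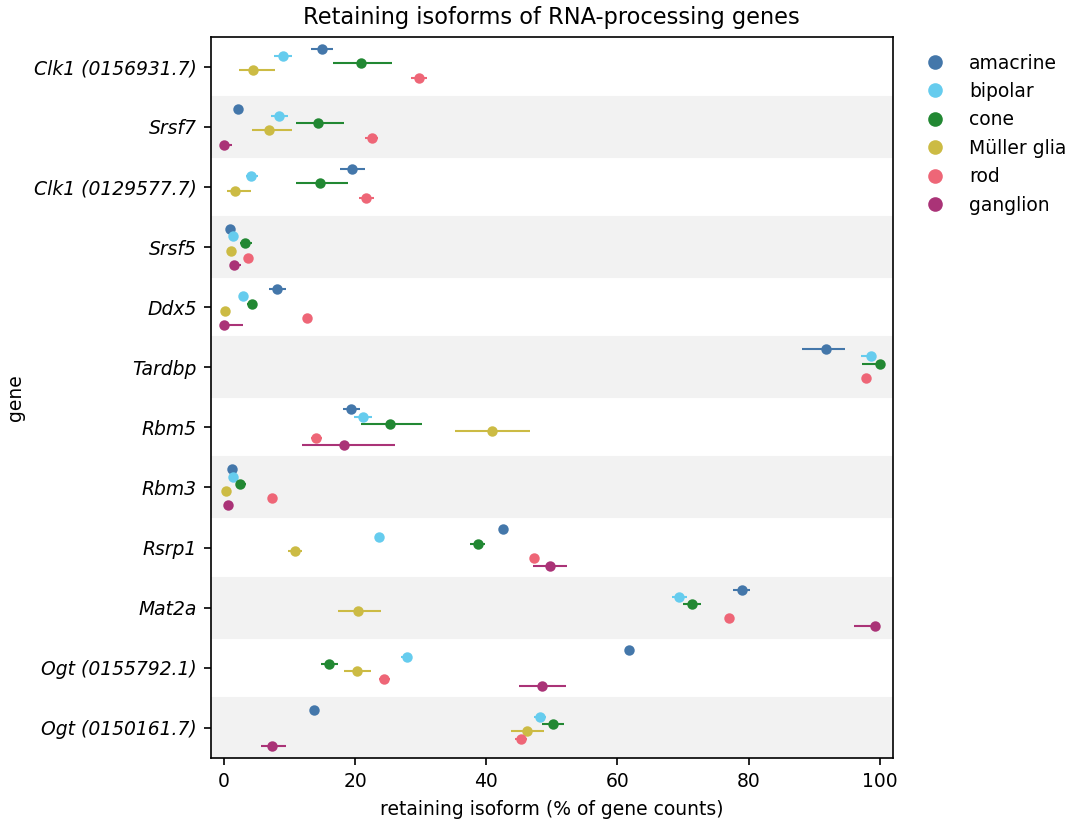
Share of gene counts (x axis, percent) of retaining isoforms of RNA-processing genes and genes with known detained introns in the 6 classes; points are shares and bars 95% exact binomial intervals, and a number in brackets is the end of the transcript identifier. Rods are highest for the Clk1, Srsf7, Srsf5, Ddx5 and Rbm3 isoforms, and Müller cells are lowest for Rsrp1 and Mat2a.

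Among phototransduction genes the retaining isoforms were minor. Unc119, a carrier of lipid-modified transducin, had 652698 rod counts, of which 2.66% (2.62 to 2.70%) were of the isoform that retains a 187-nt intron; the share was 1.22% in amacrine, 0.946% in bipolar, 1.72% in cone cells, 0.761% in Müller cells and 0 of 829 in ganglion cells (exact upper limit 0.444%). Gnat1, the rod transducin alpha subunit, was at 4.25% in rods (4.14 to 4.37%), 3.17% in cone cells, 2.72% in bipolar cells, 2.45% in amacrine cells and 0 of 134 in Müller cells (exact upper limit 2.72%). Nr2e3, a nuclear receptor of rods, was at 12.9% in rods (12.6 to 13.1%), 15.4% in cone cells, 14.8% in bipolar cells, 12.8% in amacrine cells and 3.69% in Müller cells (2.16 to 5.84%). Counts of these rod genes outside rods accompany the rod marker sums given above, and a share in those columns may be that of rod RNA; this was not tested.

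Gnb3, the transducin beta subunit of cones and ON bipolar cells, retained a 258-nt intron in 20.0% of bipolar (19.7 to 20.2%), 18.9% of cone (18.5 to 19.3%), 26.3% of rod (25.2 to 27.4%), 25.9% of amacrine and 23.2% of Müller cells counts. Its share was thus above those of Unc119, Gnat1 and Nr2e3 in rods, cones, bipolar and amacrine cells. In the rod column cone markers summed to 1914 CPM and bipolar markers to 868 CPM, against 101302 CPM in cones and 23972 CPM in bipolar cells. The part of such counts in the Gnb3 share outside cones and bipolar cells was not tested. Cacna1f, the calcium channel of the photoreceptor synapse, had 4 unannotated retaining isoforms, with 9 to 21 counts each over the 6 columns. In rods the 3 with the most counts held 6.45%, 8.29% and 4.61% of 217 counts.

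Ribosomal protein and RNA host genes on the lists also had retaining isoforms. Rps27, a ribosomal protein, had an isoform with a 111-nt retained intron that held 91.5% in amacrine cells, 81.2% in bipolar cells, 71.0% in cone cells, 79.4% in Müller cells, 69.4% in rods and 93.6% in ganglion cells. Rpl10, another, kept a 104-nt intron of the 5′ UTR at 27.1%, 46.0%, 49.2%, 39.4%, 46.7% and 39.1%. The order of classes was nearly opposite in these 2 genes, with amacrine cells high in one and lowest in the other. Snhg5, a host gene of small nucleolar RNAs, had a main isoform with a retained first intron of 264 nt at 73.3% in rods to 99.1% in ganglion cells, and Snhg12 kept its intron in 0.0813% (ganglion cells) to 3.26% (bipolar cells).

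Differences of at least 25 percentage points between 2 classes, with at least 50 gene counts in both, were found for 129 of 525 retaining isoforms tested (24.6%); of all multi-exon isoforms 22.1% passed the same threshold. Among isoforms that reached 25% of gene counts in a class of the pair, the shares were 129 of 240 members (53.8%) and 49.4%. By this measure retaining isoforms varied between classes about as often as other isoforms. By pair, the share called ran from 4 of 284 between cones and rods (1.41%; all isoforms 2.38%) to 27 of 202 between rods and ganglion cells (13.4%; all isoforms 13.2%), and it was 59 of 466 between amacrine cells and rods (12.7%; all isoforms 11.9%). Müller cells against rods gave 23 of 268 (8.58%; all isoforms 6.48%), and against amacrine cells 24 of 266 (9.02%; all isoforms 12%).

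A difference in the share of a retaining isoform need not be a difference in retention, since isoforms of a gene also differ in their ends and other exons. Of the 129 isoforms, 107 had at least 1 intron with 50 or more retaining or splicing counts in both classes. In 74 of these (69.2%) the retained percent of an intron differed by at least 25 points, and in 18 it differed by less than 10. The largest difference over the introns of the isoform was taken, in either direction, so it need not go the same way as the isoform share. Of the 539 introns measured in 2 or more classes, 142 (26.3%) ranged over at least 25 points between classes, and the median range was 12.8 points. The number with such a range was 12 of 69 for 5′ UTR introns, 14 of 43 for 3′ UTR introns and 95 of 365 for coding introns. No such share was computed for other introns or splicing events, so these numbers cannot be read as particular to retained introns. The number of classes with a value also differed between introns, and a range over more classes can only be wider.

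The 10 largest differences, with at least 100 gene counts in both classes and 1 isoform a gene, were in Rxrg, Vamp1, Mat2a, Rabgef1, Gabarap, Ncdn, Brms1l, Zfp383, Nrbp1 and Gnai2. They were chosen for their size, and their values are a description.

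Rxrg encodes retinoid X receptor gamma, a nuclear receptor of cones. Its isoform that keeps the 42-nt GC-AG stretch printed above held 51.6% in amacrine cells, 8.58% in bipolar cells (7.03 to 10.3%), 88.1% in cone cells, 12.9% in Müller cells, 82.4% in rods and 99.3% in ganglion cells (97.6 to 99.9%). The retained percent of the intron itself was 99.7% in amacrine cells and 10.4% in bipolar cells, with 90.4% in cone cells. The stretch ends within a run of repeated ag, where a second 3′ end 4 bases further on was also used, and the placing of a gap by the aligner there was not tested.

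Vamp1 encodes a synaptobrevin of synaptic vesicles. The isoform that keeps its last intron (412 or 1940 nt, by the 3′ site used elsewhere) held 54.0% in amacrine cells (48.2 to 59.7%), 84.1% in bipolar cells (76.9 to 89.7%), 94.4% in rods (91.4 to 96.5%) and 8.30% in ganglion cells (5.07 to 12.7%). The retained percent of the 412-nt intron was 57.4%, 94.3%, 97.1% and 8.30%, so here the intron followed the isoform. Ganglion cells were the class in which the spliced form prevailed.

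Gabarap is a ubiquitin-like protein of autophagosomes. Its retaining isoform, with the open-frame intron printed above, held 20.2% in amacrine cells (17.2 to 23.4%), 51.2% in bipolar cells (44.2 to 58.2%), 64.7% in cone cells (50.1 to 77.6%), 84.6% in rods (80.1 to 88.4%) and 22.0% in ganglion cells (12.3 to 34.7%). Photoreceptors were high and amacrine and ganglion cells low, with intervals that did not overlap between those pairs. Zfp383, a zinc finger protein, had the opposite order: 96.4% in amacrine cells (93.3 to 98.3%), 72.7% in bipolar cells (63.4 to 80.8%) and 37.1% in rods (32.6 to 41.8%). M21 assigns the Zfp383 isoform to nonsense-mediated decay, and the first stop codon of its intron is the one in capitals above.

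Brms1l, a subunit of histone deacetylase complexes, kept an 877-nt intron of the 3′ UTR in an isoform at 91.2% in amacrine cells, 66.9% in bipolar cells, 50.8% in cone cells, 29.1% in rods (25.8 to 32.5%) and 63.8% in ganglion cells. The retained percent of the intron differed less, with 97.6% in amacrine cells and 62.5% in rods. Nrbp1, a pseudokinase, was at 85.2% in amacrine cells, 68.3% in bipolar cells, 29.8% in cone cells (18.4 to 43.4%), 93.2% in Müller cells, 42.5% in rods (38.0 to 47.0%) and 100% in ganglion cells. Its 67-nt intron, absent from M21, was retained in 43.6% of rod counts and 91.9% of amacrine counts, and the 85-nt intron with the same start in 94.4% and 92.1%.

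In Rabgef1 and Gnai2 the retained percent of the intron differed between classes by less than the share of the isoform did, and in Ncdn the intron could not be measured. Rabgef1, an activator of Rab5, had an isoform at 82.7% in amacrine cells, 68.1% in bipolar cells, 14.3% in cone cells and 11.5% in rods. A second isoform kept the same 459-nt 3′ UTR intron, and its retained percent was 98.4%, 93.4%, 93.9% and 94.2%. Gnai2, an inhibitory G protein subunit, had an isoform at 38.7% in amacrine cells, 61.4% in bipolar cells, 31.3% in cone cells, 42.7% in Müller cells, 44.3% in rods and 5.19% in ganglion cells, whereas the 47-nt intron was retained in 83.7% (ganglion cells) to 97.5% (bipolar cells). Ncdn, a neuronal protein of dendrites, was at 4.85% in amacrine cells (3.17 to 7.08%), 11.05% in bipolar cells and 68.1% in rods (61.4 to 74.2%), with too few counts over its first intron to compare.

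**Figure D5:**
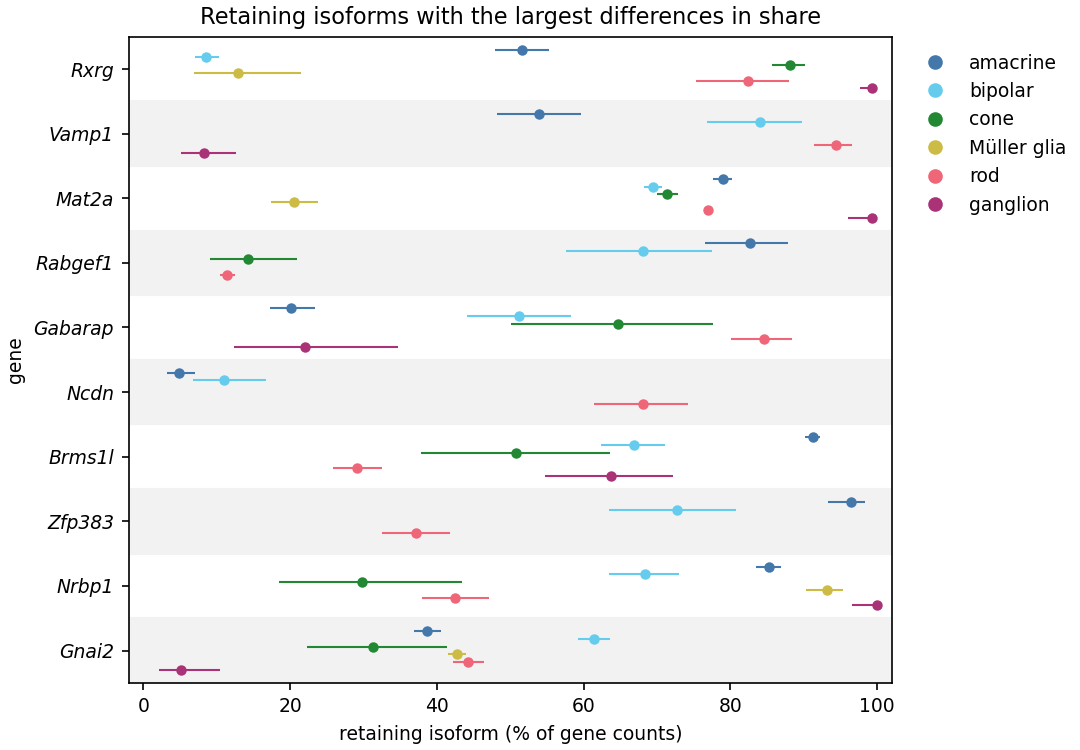
Share of gene counts (x axis, percent) of the 10 retaining isoforms with the largest difference between 2 classes; points are shares, bars are 95% exact binomial intervals and classes with under 50 gene counts are left out. Rods are high in Vamp1, Gabarap and Ncdn and low in Brms1l and Zfp383.

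The 3 highest shares in each class, among isoforms whose spliced form also had counts there, were all of isoforms that M21 classes as protein_coding. Rods had Ccdc137 at 99.6%, Mfsd14b at 98.0% and Efhd1, a mitochondrial calcium sensor, at 98.0%. Amacrine cells had Wars, the tryptophanyl-tRNA synthetase, at 99.8%, Pfdn6 and Spr; bipolar cells had Mapk10, the neuronal JNK3 kinase, at 98.8%, Tardbp and Tmem184c at 98.6%. Cones had Itfg2 at 99.7%, Sec62 of the translocon at 98.1% and Pfdn6. Müller cells had Fbxl15 at 98.7%, Sec62 at 98.3% and Selplg at 97.7%, a ligand of selectins on leukocytes whose counts there accompany the microglia markers given above. Ganglion cells had Spop, Actr3 (actin-related protein 3) at 99.5% and Mat2a. In each of these the spliced form was the exception in the class named. Mat2a and Ccdc137 had wide ranges over the classes, with Ccdc137 at 41.1% in bipolar cells (28.1 to 55.0%) on 56 counts.

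Xbp1, named after its values were seen, has an intron known to be cut out in the cytoplasm by the stress sensor IRE1, and not by the spliceosome, when unfolded proteins accumulate. The isoform without it has a gap of 26 nt that is not an intron of M21. The CT and GT ends printed above are where the model places that gap; whether this placing is exact to the base was not tested. The unspliced isoform held 89.4% in amacrine cells (88.6 to 90.1%), 76.2% in bipolar cells (74.9 to 77.5%), 91.8% in cone cells (89.5 to 93.7%), 55.2% in Müller cells (49.5 to 60.8%), 95.7% in rods (95.1 to 96.3%) and 98.5% in ganglion cells (96.7 to 99.4%). Rods and ganglion cells had the least of the spliced form and Müller cells the most, with bipolar cells next.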

How the data were processed

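The authors deposited whole-number counts per isoform in 6 columns of cell classes and a set of transcript models, which name FLAIR as their source per the file contents; the columns name none of the 4 libraries. The submitters' processing notes name mm10. Aligner, isoform filters, cell typing and whether reads were collapsed to molecules are not given in the sources used here. GENCODE M21 (GRCm38) holds 115691 of the 122601 junctions of the models (94.4%), so positions are on GRCm38.

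Members were found from the models with the 10-nt rule, and the counts were used as deposited, with 0 columns left unused. A share is isoform counts over gene counts, for genes with at least 50 counts in the column; 95% intervals are exact (Clopper-Pearson). No sample replicates exist, so no test was made and differences are called by size (25 points); a planned comparison of GC content with the other introns of the same genes is not analysed here, because introns were read from M21 transcripts that cover them. An intron was placed in coding sequence, a UTR or a noncoding transcript from the M21 transcripts that splice it. Members and gene lists were chosen with earlier results of these data known. Genes were named by a rule: the 10 retaining isoforms with the most counts, the 3 highest shares per class, the 10 largest differences, the gene lists, the 3 longest introns and the 3 isoforms with the most introns; Xbp1 was named after its values were seen. On simulated counts for the difference between classes, all 200 isoforms changed by 40 points were found (100%) with 0 false calls among 325 unchanged, over 669 isoforms. The simulation held counting error only, and its change was well above the threshold of 25 points. Admixture and variation between libraries or animals were not simulated. It therefore checks that the calling step works and gives no error rate for the calls in the real columns. Python 3.11.15 with pandas 2.3.3, numpy 2.4.6, scipy 1.17.1 and matplotlib 3.10.9 was used.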

Additional observations from a re-analysis of the deposited data

How the results depend on the processing

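Of 168 recomputed values, 134 kept their size, 34 moved and 0 reversed. For counts, values labelled as keeping their size could still differ widely. The 669 retaining isoforms fell to 494 with introns taken only from models at 10% or more of gene counts. They rose to 761 with single-exon models included. The 129 isoforms with a difference of 25 points fell to 91 with 100 gene counts. All 3 of these changes carry that label. Of the 168 values, 97 were marked as main results, of which 24 moved, and 26 were of alternatives added after seeing the data. A reversal could be recorded only for the share of genes higher in rods than in Müller cells and for the 10 largest differences. For those differences, summing isoforms with the same introns could change nothing, because each had only 1 such isoform. With introns taken only from models at 10% or more of gene counts, the class medians fell to 10.0% in amacrine cells, 10.3% in bipolar cells, 12.1% in cone cells, 5.33% in Müller cells, 13.8% in rods and 6.17% in ganglion cells, and 80.6% of genes were higher in rods than in Müller cells, against 74.3% of 218 in the report's setting. No background over all genes was computed for these shares of genes, which carry the condition of a rod count. Over retaining isoforms with 100 or more counts, an alternative added later, the medians were 35.8% in rods, 29.0% in amacrine cells, 25.6% in bipolar and 21.2% in cone cells. The 129 isoforms with a difference of 25 points became 202 with 20 gene counts (33.0% of those tested, all isoforms 31.0%), 25 at 50 points (4.76%, all isoforms 5.95%), 283 at 10 points (53.9%, all isoforms 54.9%) and a mean of 51.8 over 5 draws thinned to 3509890 counts a column (19.8%, all isoforms 19.4%). With 100 gene counts the share was 20.7% (all isoforms 17.7%). As means, retained introns were 390 nt with 52.3% GC and other introns 3490 nt; the median of other introns was 758 nt in models at 10% or more. Annotated members rose to 83.8% with 20 or more counts. No paired analysis was possible because each class is 1 pooled column with no library or replicate number. With every column thinned to 3509890 counts the class medians were 19.4% in rods and 6.98% in Müller cells. Genes with no retaining count numbered 41 in ganglion, 32 in amacrine and 21 in Müller cells, and the part of depth in this was not tested.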
